A study of Mus musculus with 14 samples.

Results

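Tmem119, Selplg, Siglech, Crybb1, Gp9, Csmd3, Olfml3 and Sparc, 8 genes of the microglial homeostatic signature that are not purinergic receptors, were followed in single-cell transcriptomes of the mouse spinal cord. They were listed by symbol, and all 8 were found among the 55335 genes of the deposited matrices. The symbols were chosen by the fall or persistence measured for them in SOD1G93A against nTg microglia. The values of that contrast are therefore given as a description without a test.

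Dissociated spinal cords of adult mice (P115-120, in days) were sequenced in 14 libraries of 4 groups, under a design that asks what the myeloid receptor Clec7a does in microglia at mid-disease in a model of amyotrophic lateral sclerosis. SOD1G93A (3 libraries) is the strain B6SJL-Tg(SOD1*G93A)1Gur/J, which carries a mutant human SOD1 transgene on a mixed background. Clec7a-KO (4 libraries) is B6.129S6-Clec7atm1Gdb/J, in which Clec7a is disrupted in every cell of the body, SOD1G93A/Clec7a-KO (4 libraries) is labelled with both alterations, and nTg (3 libraries) is the non-transgenic control. The transgene is active throughout the animal, so the motor neurons and glia around the microglia carry it too. The strain labels do not show that the 4 groups share 1 genetic background. Nor do the labels say outright that each library is 1 animal, so p-values below measure the spread between libraries.

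Microglia are the resident macrophages of the brain and spinal cord. In the healthy adult they keep a characteristic surveying program, the homeostatic signature, which depends on TGF-beta signalling and on transcription factors such as PU.1 and SALL1. In mouse models of neurodegeneration many of its genes are turned down while disease-associated genes such as Apoe, Spp1 and Clec7a are turned up. The genes examined here encode surface and secreted proteins of that signature. Tmem119 encodes a transmembrane protein used to tell microglia from other macrophages. Selplg encodes PSGL-1, the ligand of P-selectin in leukocyte rolling, and Siglech encodes a sialic acid-binding lectin shared with plasmacytoid dendritic cells. Crybb1 encodes a beta-crystallin best known from the eye lens, Gp9 a subunit of the platelet receptor for von Willebrand factor, and Csmd3 a very large membrane protein with CUB and sushi domains that is also made by neurons. Olfml3 and Sparc encode secreted glycoproteins, the former of the olfactomedin family and the latter a collagen-binding matricellular protein that endothelial cells and astrocytes make as well.

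The genes are spread over several chromosomes in GENCODE vM21 (GRCm38). Tmem119 (ENSMUSG00000054675.5) lies at chr5:113793729-113800516 on the minus strand with 2 exons, and Selplg (ENSMUSG00000048163.13) at chr5:113818536-113832644 on the same strand, also with 2 exons. The pair is separated by 18019 bases that hold 1 other gene. Crybb1 (ENSMUSG00000029343.17) lies on the same chromosome at chr5:112255815-112269585 on the plus strand, with 6 exons. Siglech (ENSMUSG00000051504.18; chr7:55768178-55778925, plus strand, 5 exons) and Gp9 (ENSMUSG00000030054.4; chr6:87778072-87779768, plus strand, 2 exons) are compact genes. Csmd3 (ENSMUSG00000022311.15) covers chr15:47580637-48792063 on the minus strand, and its longest coding transcript has 71 exons. It overlaps the pseudogene Gm16300 on its own strand and the small RNA genes Gm23530 and Gm25007 on the other, so a part of its counts could belong to them. Olfml3 (ENSMUSG00000027848.12) lies at chr3:103722222-103738001 with 3 exons and Sparc (ENSMUSG00000018593.13) at chr11:55394500-55423183 with 10 exons, both on the minus strand. No other gene overlapped these 7.

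Promoters are shown because 6 of the genes moved together in microglia and the other two did not. The RefSeq promoter table (GRCm38.p6) held 5 of the 8 genes: Siglech, Crybb1, Gp9, Olfml3 and Sparc. The bases before the RefSeq start are printed 5' to 3' on the gene's strand for the 3 of them that fell with the transgene (Siglech, chr7:55767934-55768177; Crybb1, chr5:112255570-112255814; Gp9, chr6:87777820-87778069) and for Olfml3, which held (chr3:103738002-103738251). The window of Sparc lies within annotated exons and is not printed. The windows searched had 250 bases, and those of Siglech and Crybb1 are printed only up to the first annotated exon (244 and 245 bases). Capitals mark the matches to the motifs searched.
Siglech: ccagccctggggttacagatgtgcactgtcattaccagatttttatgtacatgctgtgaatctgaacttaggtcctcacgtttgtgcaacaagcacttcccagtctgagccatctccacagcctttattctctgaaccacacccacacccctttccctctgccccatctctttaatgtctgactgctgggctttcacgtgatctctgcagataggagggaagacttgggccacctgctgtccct
Crybb1: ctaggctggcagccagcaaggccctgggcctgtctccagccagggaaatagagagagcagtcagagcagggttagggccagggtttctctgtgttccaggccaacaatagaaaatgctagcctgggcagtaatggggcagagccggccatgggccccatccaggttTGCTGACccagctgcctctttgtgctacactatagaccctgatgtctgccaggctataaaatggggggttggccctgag
Gp9: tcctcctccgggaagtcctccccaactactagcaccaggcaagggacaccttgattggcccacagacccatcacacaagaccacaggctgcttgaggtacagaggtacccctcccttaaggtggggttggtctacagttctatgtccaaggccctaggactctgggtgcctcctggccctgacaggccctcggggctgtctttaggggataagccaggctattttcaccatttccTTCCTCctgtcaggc
Olfml3: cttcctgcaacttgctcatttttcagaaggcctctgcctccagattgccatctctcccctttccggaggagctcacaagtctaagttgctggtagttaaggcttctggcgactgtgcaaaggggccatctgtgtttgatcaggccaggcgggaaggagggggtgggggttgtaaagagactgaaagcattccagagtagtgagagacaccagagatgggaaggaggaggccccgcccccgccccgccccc
Motifs of factors known from macrophages were searched on both strands: GAGGAAGT (PU.1), GAGGAA (the ETS core, which GAGGAAGT contains), the PU.1-IRF composite, the ISRE pair, GTCTAGAC (SMAD), TGANTCA (AP-1), TGCTGAC (MAF) and the MEF2 site. Positions are counted back from the RefSeq start, with -1 as the base before it. Crybb1 held TGCTGAC from -84 to -78 and Sparc held it from -111 to -105 on its minus strand, a motif present in 3.81% of 32841 promoters of this length. Gp9 held the ETS core from -15 to -10 on its minus strand, printed as TTCCTC, as did 23.3% of all promoters. The windows of Siglech and Olfml3 held none of these letters. Of the other motifs, 2.44% of all promoters held GAGGAAGT, 2.3% the PU.1-IRF composite, 2.98% the ISRE pair, 0.167% GTCTAGAC, 6.75% TGANTCA and 2.92% the MEF2 site. The windows of Crybb1 and Gp9 had 1 and 2 CpG, that of Siglech 2 and that of Olfml3 6, which is also the median of all promoters. A match is a stretch of letters and shows no binding.

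After filtering, 89756 cells remained of 108892 barcodes, and 52318 of them lay in 8 clusters called microglia-like from 12 markers. The library totals ran from 28819852 to 141204910 unique molecular identifiers (UMIs, counts of single captured RNA molecules), and those of microglia from 10840763 to 100732668. The targeted gene matched the labels in every library. In microglia Clec7a stood at 883, 1035 and 1031 CPM (UMIs scaled to a total of 1e+06) in SOD1G93A and at 45.5, 28.9 and 85.4 in nTg. It stood at 1.98, 3.54, 3.11 and 3.76 CPM in SOD1G93A/Clec7a-KO and at 0.741, 2.47, 1.25 and 1.30 in Clec7a-KO. Median UMIs per microglial cell lay between 8873.5 and 21816 in SOD1G93A libraries and between 5292 and 12744 in all others. Xist exceeded the Y-linked Ddx3y in nTg replicates 1 and 3, Clec7a-KO replicate 3 and SOD1G93A/Clec7a-KO replicate 4, and in no SOD1G93A library. All 12 microglial markers had UMIs in every group. The summed level of border-associated macrophage markers in the microglial clusters was 1.89 to 3.28 CPM in nTg, 2.37 to 6.84 in Clec7a-KO, 51.2 to 111 in SOD1G93A and 76.0 to 124 in SOD1G93A/Clec7a-KO, with UMIs for 8 of 8. The summed level of monocyte markers was 4.68 to 11.4, 5.06 to 30.4, 141 to 199.5 and 135 to 259 CPM in the same order, with UMIs for 7 of 7. These are sums over the microglial clusters, within which no such cells were told apart. What they mean for the results below was not tested. No library shared more than 0.474% of its barcodes with another.

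The 8 genes fell into 6 that were lower and 2 that held. A gene was said to fall where the fitted log2 fold change of SOD1G93A against nTg was -1 or lower and no SOD1G93A library reached the range of nTg, a rule that 10.1% of the 16718 genes tested met. Siglech, at -1.07, was the gene nearest to the threshold on the inside and Olfml3, at -0.19, the nearest on the outside, so the latter lay closer to no change than to the threshold. Levels are given in CPM of the microglial UMIs of a library after TMM scaling, in the order of the replicates. They count 3' ends and so carry no correction for gene length.

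Tmem119 stood at 729, 799 and 754 CPM in nTg and at 316, 199.8 and 200.1 in SOD1G93A. In Clec7a-KO its level was 807, 784, 723 and 919.5 CPM, and in SOD1G93A/Clec7a-KO it was 238, 216, 203 and 232. Every library with the transgene lay below every library without it, and SOD1G93A replicate 1 was the highest of the transgenic libraries. The mean in SOD1G93A (238.5 ± 66.8 CPM, SD, n = 3) was 31.4% of that in nTg (761 ± 35.4, n = 3), and the mean in SOD1G93A/Clec7a-KO (222 ± 15.9, n = 4) was 27.5% of that in Clec7a-KO (809 ± 82.1, n = 4). Without SOD1G93A replicate 1 the log2 fold change of SOD1G93A against nTg was -1.99 in place of -1.67.

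Selplg, the most abundant of the 6 in the libraries without the transgene, stood at 1122, 1539 and 1392 CPM in nTg and at 638, 503 and 544 in SOD1G93A. In Clec7a-KO it had 1354, 1263, 1392 and 1765 CPM, and in SOD1G93A/Clec7a-KO 588, 551, 774 and 759.6. The transgenic libraries lay again below all others, and within them replicates 3 and 4 of SOD1G93A/Clec7a-KO were the highest. The remaining level was 41.6% of nTg in SOD1G93A and 46.3% of Clec7a-KO in SOD1G93A/Clec7a-KO.

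Siglech stood at 624, 643 and 657 CPM in nTg and at 267, 337 and 309 in SOD1G93A. It had 741, 729, 756 and 461 CPM in Clec7a-KO and 281, 225, 195 and 239 in SOD1G93A/Clec7a-KO. Replicate 4 of Clec7a-KO lay apart from the other three, yet still above every transgenic library. The transgenic means were 47.5% of nTg (304.5 ± 35.3 against 641 ± 16.8 CPM, n = 3 each) and 35% of Clec7a-KO (235 ± 35.8 against 672 ± 141, n = 4 each).

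The 3 genes of lowest level fell to the smallest remaining shares. Crybb1 had 156, 159 and 120.1 CPM in nTg, 44.5, 14.9 and 16.8 in SOD1G93A, 184, 167, 201 and 252 in Clec7a-KO, and 28.5, 10.9, 14.3 and 29.8 in SOD1G93A/Clec7a-KO. SOD1G93A replicate 1 was the highest transgenic library here too, and all 7 transgenic libraries stayed below the 7 others. The means of SOD1G93A and SOD1G93A/Clec7a-KO came to 17.5% of nTg and 10.4% of Clec7a-KO. Without SOD1G93A replicate 1 the log2 fold change of Crybb1 in SOD1G93A against nTg was -3.26 in place of -2.52, that of Gp9 -3.37 in place of -2.85 and that of Csmd3 -2.60 in place of -2.27. Gp9, with 157 to 1115 UMIs in a library, had 33.3, 33.3 and 34.4 CPM in nTg, 7.30, 3.10 and 3.69 in SOD1G93A, 29.9, 29.9, 29.3 and 62.9 in Clec7a-KO, and 5.06, 2.65, 5.71 and 10.6 in SOD1G93A/Clec7a-KO. The groups with and without the transgene did not overlap, and Clec7a-KO replicate 4 was the highest of the 14. Its transgenic means were 13.96% of nTg and 15.8% of Clec7a-KO. Csmd3 had 146, 127 and 106 CPM in nTg, 35.1, 22.2 and 21.2 in SOD1G93A, 130.5, 138, 154 and 49.8 in Clec7a-KO, and 27.6, 16.1, 8.79 and 15.4 in SOD1G93A/Clec7a-KO. In Clec7a-KO replicate 4 Csmd3 came nearest to the transgenic libraries without reaching them. The transgenic means were 20.7% of nTg and 14.4% of Clec7a-KO. All these levels lay far above the floor of 3 UMIs, which was 0.229 CPM or less in each library. In oligodendrocyte precursor-like cells Csmd3 was low in Clec7a-KO replicate 4 too, at 108 CPM without TMM scaling. There it was also low in SOD1G93A/Clec7a-KO replicates 3 and 4, at 91.7 and 84.7 CPM, against 204 to 297 in every other library. These libraries carry the numbers 16, 13 and 15. Their part in the microglial values of Csmd3 was not tested.

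On the TMM scale Olfml3 and Sparc overlapped between all groups. Olfml3 stood at 689, 627 and 680.3 CPM in nTg, 509, 633 and 603 in SOD1G93A, 593, 459.9, 557 and 1133 in Clec7a-KO, and 435, 462, 1076 and 691 in SOD1G93A/Clec7a-KO. Its highest libraries were replicate 4 of Clec7a-KO and replicates 3 and 4 of SOD1G93A/Clec7a-KO, which carry the library numbers 16, 13 and 15, the last of the series, although the third of them, at 691 CPM, lay level with nTg replicate 1 at 689. The means were 87.5% of nTg in SOD1G93A and 97.1% of Clec7a-KO in SOD1G93A/Clec7a-KO. Sparc, the most abundant of the 8 genes, stood at 2039, 2013 and 2114 CPM in nTg, 2279, 2134 and 1958 in SOD1G93A, 2343, 2032, 2001 and 3296 in Clec7a-KO, and 1950.5, 2238, 2899 and 2564 in SOD1G93A/Clec7a-KO. The same 3 libraries were its highest. Its means were 103.3% of nTg and 99.8% of Clec7a-KO. The plot of levels by library shows the gap in the first 6 genes and its absence in these 2.

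**Figure D1:**
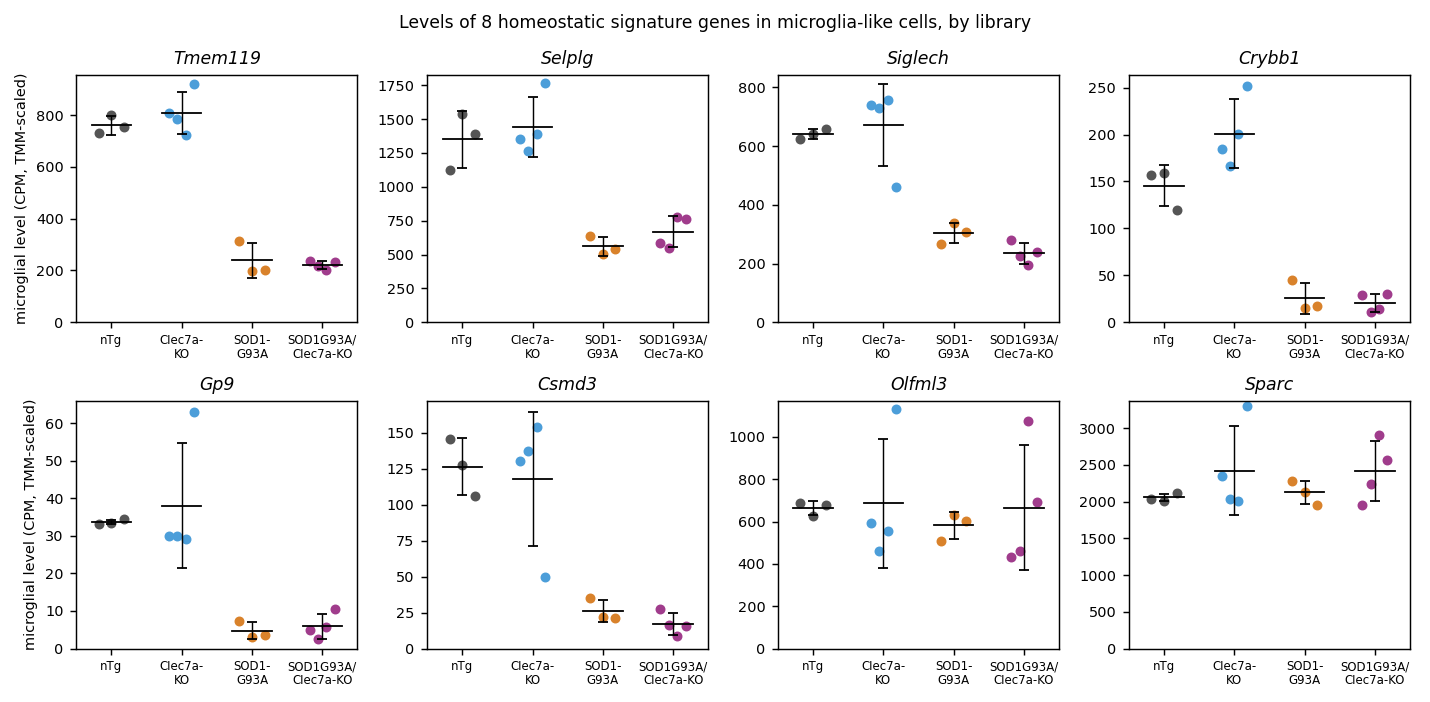
Level of each gene in microglia-like cells (y axis, TMM-scaled CPM, starting at 0) in the 14 libraries, with 1 point per library, a line at the group mean and bars of 1 SD, by group on the x axis. In Tmem119, Selplg, Siglech, Crybb1, Gp9 and Csmd3 every library of SOD1G93A and SOD1G93A/Clec7a-KO lies below every library of nTg and Clec7a-KO, whereas in Olfml3 and Sparc the groups overlap.

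The values of Olfml3 and Sparc depended on the scaling. TMM factors were 1.04 to 1.24 in the libraries without the transgene and 0.769 to 0.931 in those with it. Against plain library totals, the median of all genes moved to -0.44 in SOD1G93A against nTg and to -0.51 in SOD1G93A/Clec7a-KO against Clec7a-KO. On that scale Olfml3 was at -0.65 and Sparc at -0.40 in SOD1G93A against nTg, in place of -0.19 and 0.047. The libraries of these groups then no longer overlapped for either gene. In plain CPM Olfml3 stood at 854, 751 and 822 in nTg and at 474, 538 and 535 in SOD1G93A. Sparc stood at 2528, 2409 and 2556 in nTg and at 2120, 1814 and 1736 in SOD1G93A. Between SOD1G93A/Clec7a-KO and Clec7a-KO, Olfml3 was at -0.55 (edgeR adjusted p 0.0775) and Sparc at -0.51 (edgeR adjusted p 0.00973), so that Sparc passed the threshold as lower. The plain CPM of Sparc did not overlap there (1728 to 2227 against 2418 to 3414), while that of Olfml3 did. The 2 genes thus lay near the median gene on either scale, and the 6 others stayed below -1 on both. With TMM scaling and library number as a covariate Olfml3 was at 0.25 and Sparc at 0.24 in SOD1G93A against nTg, so that the sign of Olfml3 turned. The mean over cells of the UMIs scaled to 1e+06 in each cell gave a log2 ratio of SOD1G93A to nTg of -0.56 for Olfml3 (549 against 809) and -0.30 for Sparc (1975 against 2435). In unscaled UMIs per cell, which follow the depth of a library, Sparc was at 24.7, 17.5 and 27.3 in nTg and at 20.2, 34.7 and 38.2 in SOD1G93A, and Olfml3 at 8.34, 5.44 and 8.79 and at 4.51, 10.3 and 11.8. Replicate 1 of SOD1G93A, the shallowest of its group, thus lay below the other two and within or below the range of nTg. Tmem119 went from 8.50 ± 1.43 to 3.32 ± 0.558 UMIs per cell, Crybb1 from 1.61 ± 0.261 to 0.322 ± 0.0758, Gp9 from 0.379 ± 0.0804 to 0.0624 ± 0.0109 and Csmd3 from 1.41 ± 0.331 to 0.362 ± 0.0516 (n = 3 each). Selplg went from 14.98 ± 2.61 to 8.15 ± 2.49 UMIs per cell, without overlap. Siglech stood at 7.55, 5.58 and 8.49 in nTg and at 2.37, 5.49 and 6.03 in SOD1G93A, so its libraries overlapped on this unscaled measure.

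The contrast of SOD1G93A/Clec7a-KO with Clec7a-KO shares no library with the one that chose the genes, and here the genes were tested. All 6 falling genes were lower, and neither Olfml3 nor Sparc passed the test. Of all 16718 genes tested, 21.0% were called lower and 46.7% were called in either direction at an adjusted p under 0.05. The log2 fold change was -3.27 for Crybb1 (SE 0.38, edgeR adjusted p 1.31e-05), -2.80 for Csmd3 (SE 0.36, edgeR adjusted p 3.18e-05) and -2.70 for Gp9 (SE 0.39, edgeR adjusted p 8.07e-05). It was -1.86 for Tmem119 (SE 0.16, edgeR adjusted p 8.2e-07), -1.51 for Siglech (SE 0.17, edgeR adjusted p 1.03e-05) and -1.11 for Selplg (SE 0.17, edgeR adjusted p 0.000141). Each was lower in 4 of 4 SOD1G93A/Clec7a-KO libraries than in all 4 Clec7a-KO libraries, a pattern that 15.3% of all genes showed. The log2 fold change was -0.042 for Olfml3 (SE 0.30, edgeR adjusted p 0.918) and -0.0032 for Sparc (SE 0.18, edgeR adjusted p 0.991). Without Clec7a-KO replicate 4 these became 0.31 and 0.18, still past no threshold (edgeR adjusted p 0.340 and 0.358). The 6 calls were made again when any 1 library was left out, and when the clusters led by haemoglobin genes, by Gpnmb and by low depth were left out (log2 fold changes from -3.47 to -1.12). The plot of both transgene contrasts sets the fitted values side by side.

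**Figure D2:**
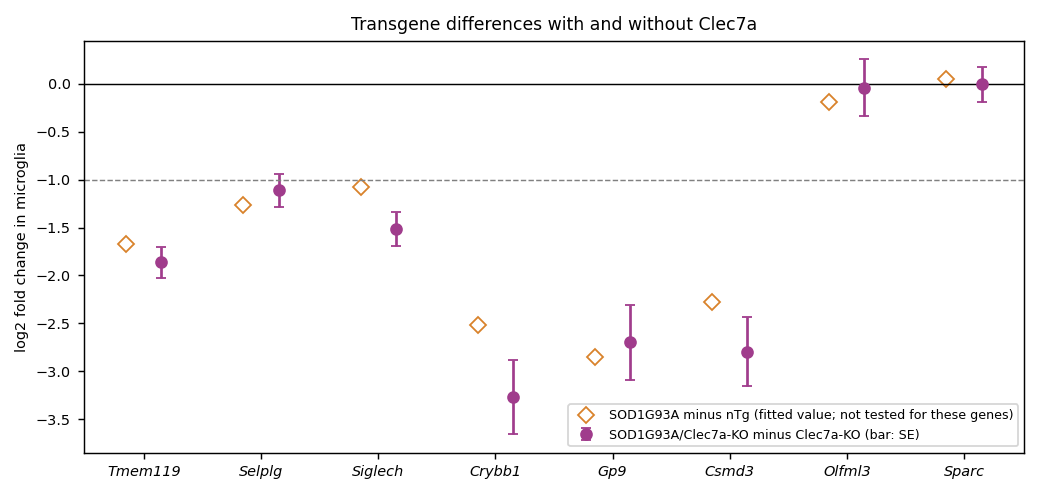
Fitted log2 fold change in microglia (y axis) of each gene (x axis), as open diamonds for SOD1G93A minus nTg, which was not tested, and as filled circles with bars of 1 SE for SOD1G93A/Clec7a-KO minus Clec7a-KO. The dashed line marks the threshold of -1. The first 6 genes lie below it in both contrasts, from -1.07 to -3.27, and Olfml3 and Sparc lie within 0.2 of the line at 0.

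Loss of Clec7a moved none of the 8 genes past the threshold, with or without the transgene. Each of these comparisons uses the SOD1G93A or the nTg libraries by which the genes were chosen, so they are not independent of that choice. Between SOD1G93A/Clec7a-KO and SOD1G93A only 3 of 16718 genes were called (0.0179%), against 1877 at an unadjusted p under 0.05, and DESeq2 called 42. None of the 8 was among them, nor did any of the 8 (0) reach an unadjusted p under 0.05. The log2 fold changes were -0.62 for Csmd3 (SE 0.37, edgeR adjusted p 0.4933), -0.37 for Siglech (SE 0.18, edgeR adjusted p 0.450) and 0.32 for Gp9 (SE 0.41, edgeR adjusted p 0.75). The values for Crybb1 (-0.29, SE 0.38), Selplg (0.25, SE 0.19), Olfml3 (0.19, SE 0.32), Sparc (0.18, SE 0.20) and Tmem119 (-0.10, SE 0.17) had edgeR adjusted p-values between 0.5681 and 0.8143. None of the 8 separated the libraries of these groups, as 8.92% of all genes did in 1 direction or the other. Without SOD1G93A replicate 1, the library in which Tmem119 and Crybb1 stood highest among the transgenic ones, their values turned to 0.14 and 0.38. Olfml3, Sparc and Gp9 turned to -0.38, -0.020 and -0.27 without the libraries numbered 13 to 16.

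In Clec7a-KO against nTg 5 genes were called (0.0299%), against 404 at an unadjusted p under 0.05, and DESeq2 called 10, again with 0 of the 8 among them and 0 at an unadjusted p under 0.05. The largest difference among the 8 was that of Crybb1, at 0.47 (SE 0.38, edgeR adjusted p 1, unadjusted p 0.242). All 4 Clec7a-KO libraries lay above all 3 of nTg for Crybb1, as did those of 1.87% of all genes. The other log2 fold changes ran from -0.10 for Csmd3 to 0.23 for Sparc. The Clec7a effect itself was compared between transgenic and non-transgenic microglia with an interaction term. It contains the contrast of SOD1G93A with nTg that chose the genes, so its values for the 8 genes are a description only. That term ran from -0.75 for Crybb1 to 0.15 for Selplg, Gp9 and Olfml3, and edgeR called 0 of 16718 genes (0%), against 342 at an unadjusted p under 0.05. DESeq2 was not run on this term.

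The share of microglia with at least 1 UMI of a gene was compared after each cell was thinned to 1000 UMIs, which left out no cell. Tmem119 was then detected in 57.0% ± 0.81 of nTg microglia (SD, n = 3) and 58.5% ± 2.81 in Clec7a-KO (n = 4), against 18.9% ± 5.51 in SOD1G93A (n = 3) and 16.8% ± 2.12 in SOD1G93A/Clec7a-KO (n = 4). Selplg went from 75.8% in nTg to 38.4% in SOD1G93A, and Siglech from 53.6% to 24.2%. Crybb1 went from 15.5% ± 3.04 to 2.92% ± 2.06, Csmd3 from 14.3% ± 1.73 to 2.73% ± 1.02 and Gp9 from 4.14% ± 0.386 to 0.562% ± 0.334. In this measure Olfml3 and Sparc were lower as well, at 39.0% ± 1.83 against 53.4% ± 3.23 and at 74.4% ± 2.77 against 87.0% ± 0.713. Thinning fixes the total per cell without the TMM scaling, so these shares sit on the scale of plain totals described above. Before thinning, Olfml3 was detected in 94.0% of nTg and 94.4% of SOD1G93A microglia and Sparc in 98.5% and 97.9%, while Tmem119 went from 93.8% to 69.8%, Crybb1 from 60.7% to 16.8%, Csmd3 from 61.0% to 23.8% and Gp9 from 28.2% to 5.41%. Selplg, at 97.2% and 94.0%, and Siglech, at 94.2% and 83.0%, moved less. Unthinned microglia were deeper on average in SOD1G93A than in nTg, with median UMIs of 16538 and 9089 as means over libraries. The unthinned shares therefore also follow depth. At such depths nearly every cell holds a UMI of an abundant gene. The share of Selplg moved little although its level fell. Those of the other falling genes moved more than those of Olfml3 and Sparc.

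Endothelial-like cells, with a median of 6616 UMIs against 10159 in microglia, gave the background for free RNA. At 1000 UMIs each gene but Sparc was detected in at most 1.4% of them in any group. Gp9, the gene least often detected in transgenic microglia, stood at 0.562% in SOD1G93A and 0.651% in SOD1G93A/Clec7a-KO microglia, against 0.0307% and 0.0293% of endothelial-like cells. Sparc, which endothelial cells make, was detected in 89.1% to 95.1%. A microglial cell held UMIs of 3.61 ± 0.021 of the 8 genes on average in nTg and of 3.66 ± 0.094 in Clec7a-KO at this depth. In SOD1G93A it held 2.01 ± 0.14 and in SOD1G93A/Clec7a-KO 1.95 ± 0.14. Cells with none of the 8 made up 1.06% in nTg, 0.793% in Clec7a-KO, 11.5% in SOD1G93A and 11.1% in SOD1G93A/Clec7a-KO. The plot of thinned shares shows both cell classes.

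**Figure D3:**
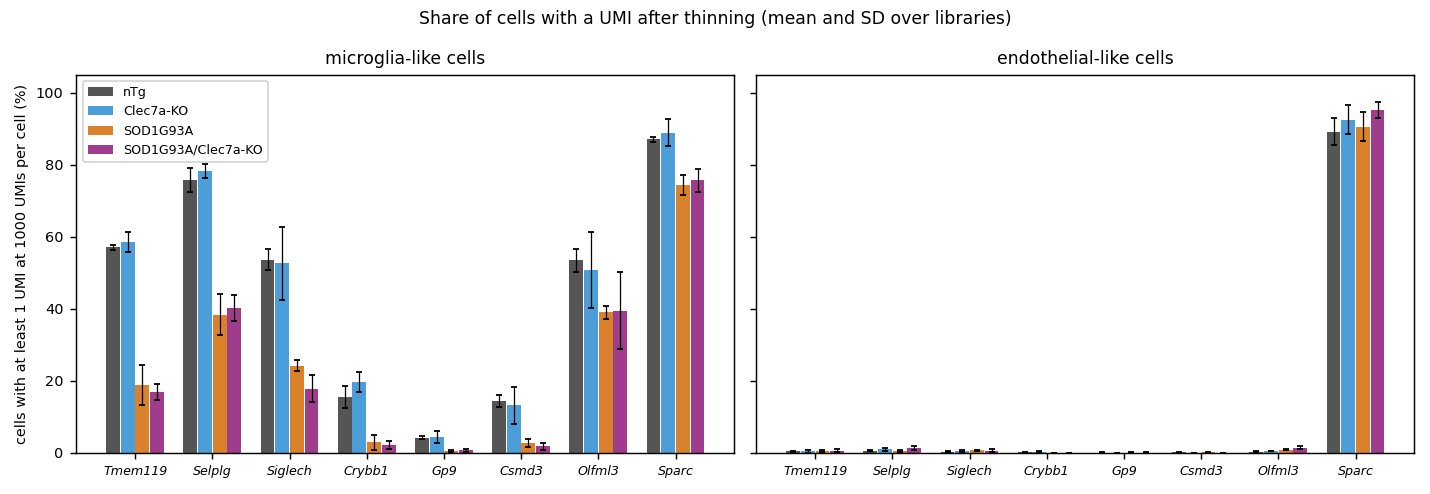
Share of cells with at least 1 UMI of each gene at 1000 UMIs per cell (y axis, percent), in microglia-like cells on the left and endothelial-like cells on the right, as means over libraries with bars of 1 SD, by group. Tmem119 falls from 57.0% in nTg to 18.9% in SOD1G93A microglia, Sparc from 87.0% to 74.4%, and in endothelial-like cells only Sparc rises above 1.4%.

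Microglia with and without the transgene lay in different clusters. Clusters 8 and 26, the latter also led by Xist and Tsix, held 88.3% ± 4.04 of microglia in nTg (n = 3) and 90.5% ± 3.66 in Clec7a-KO (n = 4). They held 0.461% ± 0.614 in SOD1G93A (84 of 15658 cells, 74 of them from replicate 1 in cluster 8) and 0.583% ± 0.642 in SOD1G93A/Clec7a-KO (78 of 20809 cells). Cluster 1 was led by Acod1, Ch25h, Olr1, Lpl and Cxcl2, with Spp1 and Clec7a also among its leading genes. Together with cluster 4, led by Gpnmb, it held 42.9% ± 6.78 of SOD1G93A and 44.8% ± 9.03 of SOD1G93A/Clec7a-KO microglia, and under 1% of the others. Of the 8 genes only Crybb1 was among the 2000 variable genes that built the clusters, and clustering without any of the 8 gave 99.985% of the same microglia. The levels by cluster are nevertheless a description, since the other genes used move with these.

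The 8 genes differed in the ratio of cluster 8, which holds mostly non-transgenic microglia, to cluster 4, the lowest for each of them, in CPM of the UMIs of a cluster without TMM scaling. Means were taken over the libraries with at least 20 cells in a cluster, 9 in cluster 8 and 7 in cluster 4. The 7 were all transgenic. The 9 included 1 library of SOD1G93A with 74 cells and 1 of SOD1G93A/Clec7a-KO with 30, weighted like the others. The mean of Crybb1 was 233 CPM in cluster 8 and 2.75 in cluster 4, a ratio of 84.6. The ratio was 46.6 for Gp9 (39.2 to 0.842 CPM), 20.0 for Csmd3 (136 to 6.78), 15.3 for Tmem119 (1028 to 67.4), 8.16 for Siglech (785 to 96.1) and 5.54 for Selplg (1660.5 to 299.6). Sparc and Olfml3 had the smallest ratios, at 2.70 (2850.5 to 1056 CPM) and 2.31 (787 to 341). Clusters 0, 2 and 3, led by chemokine and Il1b, haemoglobin and C1q, and cell-cycle genes, lay between clusters 4 and 8 for the 6 falling genes. Cluster 10, a cluster of low depth with 10.4% of nTg and 7.42% of Clec7a-KO microglia, is led by Mbp, Crybb1 and other genes and lay above cluster 8 for Crybb1 (272 CPM) and Gp9 (59.4) and below it for Csmd3 (81.5) and Tmem119 (814). Transgenic cells in clusters 8 and 26 were placed there for their likeness to non-transgenic microglia, so their levels are partly fixed by that choice. The 74 SOD1G93A cells of cluster 8, from 1 library, had 1450 CPM of Tmem119 against 981 ± 54.0 in nTg (n = 3), and 28.8 of Gp9 against 42.4 ± 3.74. The value of Gp9 rests on few UMIs in these 74 cells, since an nTg microglial cell held 0.379 UMIs of it on average. The 30 SOD1G93A/Clec7a-KO cells of cluster 8, from 1 library, had 990 CPM of Tmem119, 607 of Siglech and 87.8 of Csmd3, within the range of the 4 Clec7a-KO libraries in that cluster (886 to 1006, 493 to 1001 and 52.8 to 174). Selplg, Crybb1 and Gp9 lay below the range of those libraries. Selplg was at 1413 CPM against 1567 to 1881, Crybb1 at 176 against 207 to 331 and Gp9 at 24.0 against 32.9 to 66.2. Crybb1, Csmd3 and above all Gp9 rest on few UMIs in these 30 cells. A Clec7a-KO microglial cell held 1.89, 1.25 and 0.339 UMIs of them on average. Their values in the 30 cells were not separated from counting error. The 28 SOD1G93A/Clec7a-KO cells of cluster 26, from 1 library, had 917 CPM of Tmem119, 1446 of Selplg and 247 of Siglech, against 897, 1712 and 930 in 1 library of Clec7a-KO. Crybb1, Gp9 and Csmd3 rest on too few UMIs in these 28 cells to be compared. In Clec7a-KO the cells of cluster 8 had 967 ± 54.9 CPM of Tmem119 and 43.2 ± 15.4 of Gp9 (n = 4). The plot of microglial clusters gives all 8 genes.

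**Figure D4:**
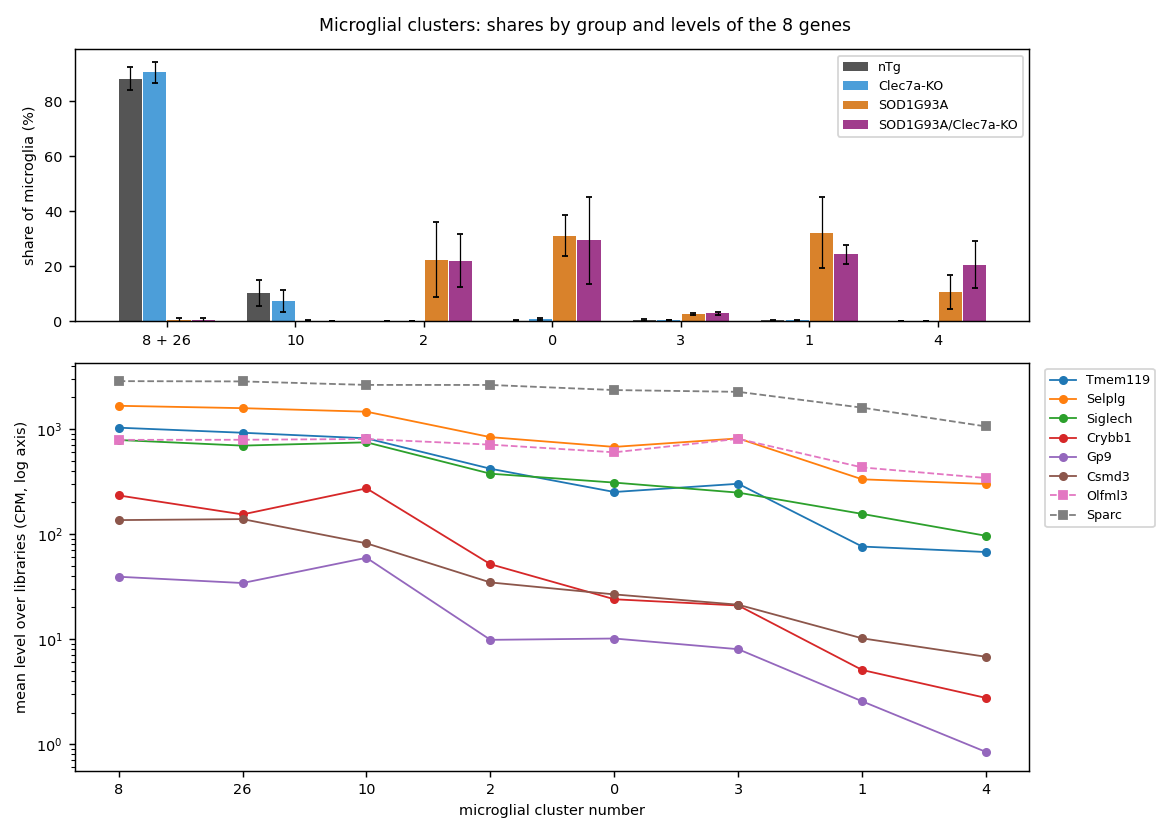
Top, share of microglia (y axis, percent; bars are means over libraries with 1 SD) in each cluster by group; bottom, mean level of each gene over libraries in each cluster (y axis, plain CPM on a log axis), with clusters in the same order from left to right. Clusters 8 and 26 hold 88.3% of nTg and 0.461% of SOD1G93A microglia, and from cluster 8 to cluster 4 Crybb1 drops by a factor of 84.6 and Olfml3 by 2.31.

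Outside microglia the genes split along other lines. Levels of a class were pooled over all libraries without TMM scaling. SOD1G93A and SOD1G93A/Clec7a-KO gave 15658 and 20809 of the 52318 microglia, so the pooled level of a falling gene in microglia is mostly that of transgenic cells. Pooled in this way, Tmem119 was at 353 CPM in microglia-like and at 5.08 in endothelial-like cells, and Gp9 at 11.9 and 0.269. Selplg reached 602 CPM in the T or NK cell class and 508 in 122 neutrophil-like cells, both leukocytes in which PSGL-1 is known, against 745 in microglia, where single libraries ran from 427 to 1842. Csmd3 was at 226 CPM in oligodendrocyte precursor-like, 172 in neuron-like and 47.9 in microglia-like cells. In nTg alone microglia had 181, 153 and 128 CPM of Csmd3, within the spread of neuron-like cells over libraries (157 ± 53.8, n = 13), and oligodendrocyte precursor-like cells 284, 239 and 235. Olfml3 was at 568 CPM in microglia, from 378 to 1173 in single libraries, and at 878 in 91 fibroblast-like cells, too few for values by library. Sparc was at 2045 CPM in microglia, 2540 in astrocyte-like, 3081 in endothelial-like and 2689 in fibroblast-like cells. The order of endothelial-like cells and microglia differed between libraries: in nTg Sparc stood at 2528, 2409 and 2556 CPM in microglia and at 2269, 3242 and 2265 in endothelial-like cells. Endothelial markers were present in the microglial clusters, with a summed level of 62.2 to 101 CPM in nTg, 48.5 to 85.3 in Clec7a-KO, 148 to 188 in SOD1G93A and 82.6 to 219.8 in SOD1G93A/Clec7a-KO (8 of 8 with UMIs). Scaled by Cldn5, which went from 8.48 to 15.7 CPM in nTg microglia to 4.19 to 8.92 in SOD1G93A, free endothelial RNA would account for 0.0940% to 0.372% of microglial Sparc in a library. Scaled by Flt1, which went the other way, from 10.9 to 13.8 CPM to 100.1 to 133, it would account for 0.168% to 4.57%, the higher values in transgenic libraries. The plot of levels by class holds all 10 named classes.

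**Figure D5:**
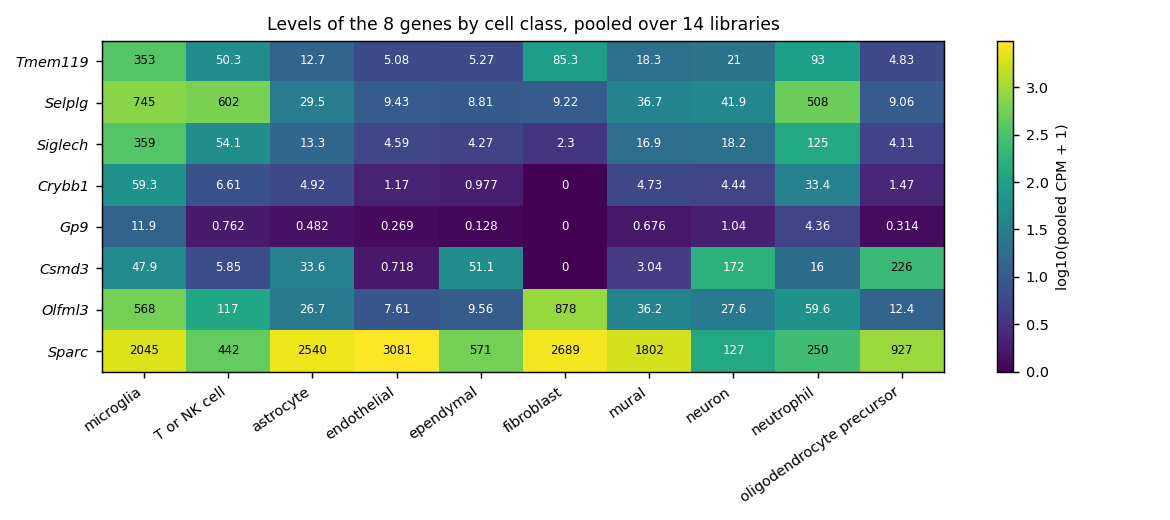
Pooled level of each gene (rows) in each of the 10 named cell classes (columns), printed as CPM and coloured by log10(CPM + 1). On this pooled scale, which the share of transgenic microglia lowers for the falling genes, Tmem119, Siglech, Crybb1 and Gp9 have their highest level in microglia, Csmd3 in oligodendrocyte precursor-like cells (226 CPM), Olfml3 in fibroblast-like cells (878 CPM) and Sparc in endothelial-like cells (3081 CPM), an order that for Sparc does not hold in every library.

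In astrocyte-like cells the transgene contrasts of these genes were not used in choosing them and could be tested, for the 7 genes other than Gp9 that passed the filter on low counts. Olfml3 rose there, from 5.98, 8.30 and 3.55 CPM in nTg to 69.3, 43.2 and 54.4 in SOD1G93A. It went from 13.7, 3.59, 4.62 and 12.6 CPM in Clec7a-KO to 104, 112, 63.0 and 66.0 in SOD1G93A/Clec7a-KO. No transgenic library overlapped a library without the transgene, and the log2 fold changes were 3.24 (SE 0.37, edgeR adjusted p 6.0e-06) and 3.35 (SE 0.33, edgeR adjusted p 7.1e-07). Of 12906 genes tested in astrocytes, 17.6% and 18.4% were called higher in the 2 contrasts. Selplg rose by 1.83 (SE 0.57, edgeR adjusted p 0.0197) and 2.21 (SE 0.44, edgeR adjusted p 0.000788), and Siglech by 2.12 (SE 0.75, edgeR adjusted p 0.0369) and 1.89 (SE 0.59, edgeR adjusted p 0.0179). Tmem119 rose in SOD1G93A/Clec7a-KO against Clec7a-KO (1.93, SE 0.49, edgeR adjusted p 0.00494) and stood at 1.36 (edgeR adjusted p 0.108) in SOD1G93A against nTg. In the latter contrast it passed the threshold with a replicate block (1.40, edgeR adjusted p 0.0440) and without SOD1G93A replicate 2 (1.79, edgeR adjusted p 0.0373). The calls of Selplg and Siglech in SOD1G93A against nTg were lost without SOD1G93A replicate 1 (edgeR adjusted p 0.123 and 0.141) or nTg replicate 3 (0.0829 and 0.129). That of Siglech was also lost without SOD1G93A replicate 3 (edgeR adjusted p 0.127) or nTg replicate 2 (0.0678). The call of Siglech between SOD1G93A/Clec7a-KO and Clec7a-KO was lost without SOD1G93A/Clec7a-KO replicate 1 (edgeR adjusted p 0.114) or 2 (0.0737). DESeq2 did not call Siglech in either contrast (adjusted p 0.132 and 0.120).

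Microglial markers moved with these values. In the same astrocyte-like cells 11 of the 12 microglial markers were called higher in SOD1G93A against nTg and all 12 in SOD1G93A/Clec7a-KO against Clec7a-KO, with median log2 fold changes of 3.33 and 3.34. Their summed level was 199.6 to 395 CPM in nTg, 221 to 939 in Clec7a-KO, 1707 to 5642 in SOD1G93A and 2467 to 12894 in SOD1G93A/Clec7a-KO, and none was at 0 in a group. Their part in the rise of Olfml3, Selplg, Siglech and Tmem119 was not tested. Sparc, which astrocytes make themselves, was at 0.37 (SE 0.22, edgeR adjusted p 0.207) and -0.069 (SE 0.19, edgeR adjusted p 0.823). Csmd3 was at -0.79 and -0.68 (edgeR adjusted p 0.100 and 0.154) and Crybb1 at 0.44 and -0.27 (edgeR adjusted p 0.613 and 0.765). In endothelial-like cells, where 0.583% and 0.780% of genes were called, Olfml3 had log2 fold changes of 1.65 and 1.41 (edgeR adjusted p 0.0559 and 0.0569). It passed the threshold with a replicate block (edgeR adjusted p 0.0285 and 0.0341) and without Clec7a-KO replicate 1 (0.0256 and 0.0156) or SOD1G93A/Clec7a-KO replicate 4 (0.0321 and 0.0239), and in the former contrast also without Clec7a-KO replicate 2 (0.0262). Microglial markers moved here too, with 7 and 8 of 12 called higher and medians of 2.47 and 2.17. Their summed level in endothelial-like cells was 144 to 221 CPM in nTg, 179.9 to 576 in Clec7a-KO, 837 to 1566 in SOD1G93A and 750.3 to 2113 in SOD1G93A/Clec7a-KO, with none at 0 in a group. Their part in the values of Olfml3 was not tested. Sparc was at 0.21 and -0.026 there (edgeR adjusted p 1.00 and 0.984). None of the genes that passed the filter on low counts was called by edgeR in endothelial (5 tested), ependymal (7), mural (5) or oligodendrocyte precursor-like cells (6). At an unadjusted p under 0.05 they numbered 3 and 1 in endothelial, 4 and 1 in ependymal, 0 and 1 in mural and 1 and 0 in oligodendrocyte precursor-like cells, for SOD1G93A against nTg and SOD1G93A/Clec7a-KO against Clec7a-KO. DESeq2 called Olfml3 in endothelial-like cells in both contrasts and 2 genes in ependymal-like cells in the former. Of the 12 microglial markers edgeR called 9 and 7 higher in ependymal, 0 and 6 in mural and 7 and 8 in oligodendrocyte precursor-like cells. Of all genes edgeR called 1.04% and 1.61% in ependymal, 0.0933% and 0.920% in mural and 1.64% and 4.85% in oligodendrocyte precursor-like cells.

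The rest of the homeostatic signature was read from a list of 28 further genes. Between SOD1G93A/Clec7a-KO and Clec7a-KO 19 of the 28 were called lower and 2 higher, where 21.0% and 25.7% of all genes were. Their median log2 fold change was -0.80, against 0.0048 for all genes. The median in SOD1G93A against nTg, which was not tested, was -0.74. The lowest were Upk1b (-2.83, SE 0.63, edgeR adjusted p 0.00215), the fructose transporter gene Slc2a5 (-2.53, edgeR adjusted p 3.6e-05), the adhesion receptor gene Adgrg1 (-2.25, edgeR adjusted p 4.0e-07) and the purinergic receptor gene P2ry12 (-2.17, edgeR adjusted p 4.0e-05). Of the 8 genes, Csmd3 (-2.80) and Gp9 (-2.70) lay between these values and Crybb1 (-3.27) below them. Among the highest were the Fc receptor-like gene Fcrls (1.64, edgeR adjusted p 0.00145), the UDP receptor gene P2ry6 (0.59, edgeR adjusted p 0.00827) and Lag3 (0.56, edgeR adjusted p 0.336). Fcrls and P2ry6 were called higher, so the 28 genes also held members that did not fall, as Olfml3 and Sparc did not among the 8. After loss of Clec7a edgeR and DESeq2 each called 0 of the 28, against 3 with and 1 without the transgene at an unadjusted p under 0.05, with medians of 0.070 and 0.11.

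Among disease-associated genes, which were drawn up with earlier results known, 24 of 24 were called higher in SOD1G93A/Clec7a-KO against Clec7a-KO (25.7% of all genes), with a median log2 fold change of 3.62. Their summed level was 14061 to 16776 CPM in nTg, 13287 to 16522 in Clec7a-KO, 127173 to 164031 in SOD1G93A and 99853 to 188340 in SOD1G93A/Clec7a-KO. Genes of dissociation stress, which warm enzyme digestion can induce, moved the other way: 14 of 22 were called lower (21.0% of all genes) and 1 higher (25.7%), with a median of -0.96. Their summed level was 35971 to 44868 CPM in nTg, 38468 to 56556 in Clec7a-KO, 22887 to 27137 in SOD1G93A and 23181 to 30899.9 in SOD1G93A/Clec7a-KO. The part of dissociation in the fall of the 6 genes was not tested.

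Profiles over the 14 libraries were compared by the root mean square difference of log2(CPM + 1), each centred on its own mean, over 7760 genes with a mean of at least 10 CPM. The closest genes were BC035044 (0.147) and Itga9 (0.157) for Tmem119, Fgd2 (0.132) and Siglece (0.138) for Selplg, and Zfhx3 (0.107) and Cd164 (0.128) for Siglech. Crybb1 was closest to Serpinf1 (0.557) and Adgrg1 (0.567), Gp9 to P2ry12 (0.319) and Serpinf1 (0.384), and Csmd3 to Prkca (0.455) and Gm45540 (0.463). The 8 genes themselves were left out of the candidates, so their likeness to each other was not compared. For the genes that held, the closest were Scnm1 (0.197) and Nr2f6 (0.204) for Olfml3 and Dpf2 (0.0901) and Pus1 (0.0924) for Sparc. A flat profile gives small differences. Divided by the root mean square of the gene's own centred profile, they were 0.50 and 0.52 for Olfml3 and 0.41 and 0.42 for Sparc. For the 6 falling genes this ratio ran from 0.15 to 0.36.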

How the data were processed

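Single cells of the spinal cord were captured with the 10x Chromium 3' kit, per the labels' protocols. The authors deposited raw UMI counts per gene and barcode, 1 matrix per library. Cell Ranger, Seurat, DESeq2 and the mm10 build are named in the submitters' processing notes, and the deposited count matrices carry software version 3.0.2, per the file headers. The cell-calling rule and the use of strand are not given in the sources used here. Columns of other samples left out numbered 0.

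Barcodes with at least 500 genes, 1000 UMIs and at most 15% mitochondrial UMIs were kept (7127 removed for low depth, 4963 for mitochondrial share), and 7046 doublets were removed at 0.8% per 1000 barcodes (2 simulated per cell). Counts scaled to 10000 were clustered without integration (with scikit-learn 1.9.0, igraph 0.11.9 and anndata 0.12.19 under scanpy 1.11.5; 2000 variable genes, 30 components, 15 neighbours, Leiden 1.0, 28 clusters). A cluster was named from fixed markers, at least 3 of them detected. Class names in the text stand for such X-like clusters and can differ from the authors'. Clusters with a second class above a mean log2 fold of 5.0 stayed unnamed, a limit chosen with the clusters in view. Cluster 5 was left unnamed by it, with border-associated macrophage and microglial markers (share 0.446% of nTg, 0.787% of Clec7a-KO, 0.825% of SOD1G93A and 1.12% of SOD1G93A/Clec7a-KO cells). So were clusters 13 (0.0338%, 0.0331%, 3.11% and 2.42%) and 22 (5.50%, 6.01%, 0% and 0%), with endothelial and mural markers.

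Sums of UMIs over the cells of a class, 1 per library, were fitted with edgeR 4.0.16 (R 4.3.3, limma 3.58.1). TMM scaling, filterByExpr, quasi-likelihood tests (two-sided) over the 14 libraries and 4 groups together, Benjamini-Hochberg adjustment over all genes and a threshold of 0.05 were used. The SE is the log2 fold change over the root of the F statistic. Tested on simulated data of 16718 genes, the fit recovered 79% of 100 genes changed by a log2 size of 1 and 99% of 100 changed by 2 in SOD1G93A/Clec7a-KO against Clec7a-KO, 74% and 99% in SOD1G93A/Clec7a-KO against SOD1G93A, and 71% and 99% in Clec7a-KO against nTg. The changed genes were drawn from those with a mean above 10 CPM. More genes were changed there than were called in the contrasts of Clec7a loss, so recovery in those contrasts can be lower. Alternatives were DESeq2 1.42.0, other scaling, no filter, a replicate block, library number and sex as covariates, other clusterings, and each library left out. Floors cover counting error only.

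Gene positions came from GENCODE vM21, in which 54587 of 55335 versioned identifiers were found. The genes and the lists were chosen with earlier results of these data known. Named genes were the 8, the 4 lowest and 4 highest of 28 other homeostatic genes (1 of these is not reported here), and the 2 closest profiles of each gene.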

Additional observations from a re-analysis of the deposited data

Results flagged for a closer look

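Each value here is a library that lay far from the others of its group, by the gap to its nearest neighbour over the range of the group. Of 42 groups examined, 5 held such a library, where chance gives about 1 in 20. All of these were groups of 4 libraries, from Clec7a-KO or SOD1G93A/Clec7a-KO. The rule needs at least 4 libraries, so nTg and SOD1G93A, with 3 each, were not examined. Clec7a-KO replicate 4 was the library in 3 of the 5. In its microglia Siglech was at 460.783 CPM against 729 to 756 in the other three, and Gp9 at 62.9 CPM against 29.3 to 29.9. P2ry12, which is a homeostatic gene too, stood high in it, at 2452 CPM against 1186 to 1395. Slc2a5 was at 32.2 CPM in microglia of SOD1G93A/Clec7a-KO replicate 1 against 10.2 to 13.9 in the other three. Tmem119 was at 17.8 CPM in astrocyte-like cells of Clec7a-KO replicate 1 against 3.59 to 5.01 in the other three. The reasons for these differences were not tested.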

How the results depend on the processing

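The 6 falling genes were called lower in SOD1G93A/Clec7a-KO against Clec7a-KO under every alternative run, and the 6 stayed at -1 or lower in SOD1G93A against nTg. With plain library totals Sparc was also called lower in SOD1G93A/Clec7a-KO against Clec7a-KO, for 7 called. Genes called in SOD1G93A/Clec7a-KO against Clec7a-KO ranged from 6288 to 9744.

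Between SOD1G93A/Clec7a-KO and SOD1G93A the 3 genes called became 42 with DESeq2, 12 without the low-count filter, 8 with library number as covariate and 3 to 14 with 1 library left out (14 without SOD1G93A replicate 1). In Clec7a-KO against nTg the 5 became 10 with DESeq2, 10 without the filter and 4 to 8 with 1 library left out (8 without nTg replicate 1). Members called outside microglia became 1 with DESeq2 in endothelial-like cells in both contrasts (Olfml3) and 2 in ependymal-like cells in SOD1G93A against nTg, where edgeR called 0. With 1 library left out they ranged from 0 to 1 in endothelial-like cells in both contrasts, from 0 to 1 and from 0 to 2 in ependymal-like cells, and from 1 to 4 in astrocyte-like cells in SOD1G93A against nTg (1 without SOD1G93A replicate 1 or nTg replicate 3). At 2000 UMIs per cell, members per microglial cell were 4.82 in nTg, 4.86 in Clec7a-KO, 2.89 in SOD1G93A and 2.73 in SOD1G93A/Clec7a-KO.

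These uncalled values changed sign. Between SOD1G93A/Clec7a-KO and SOD1G93A, Gp9 was at -0.092 and Olfml3 at -0.21 with library number as covariate, Gp9 at -0.27, Olfml3 at -0.38 and Sparc at -0.020 without libraries 13 to 16, and with 1 library left out Tmem119 ranged from -0.22 to 0.14 and Crybb1 from -0.56 to 0.38 (both highest without SOD1G93A replicate 1) and Olfml3 from -0.16 (without SOD1G93A/Clec7a-KO replicate 3) to 0.35. In Clec7a-KO against nTg, Olfml3 was at -0.31 without libraries 13 to 16 and ranged from -0.31 (without Clec7a-KO replicate 4) to 0.19 with 1 library left out. In SOD1G93A/Clec7a-KO against Clec7a-KO, Olfml3 ranged from -0.43 to 0.31 and Sparc from -0.16 to 0.18, both highest without Clec7a-KO replicate 4. A further 35 sign changes of uncalled values were under 1 SE. The causes were not tested.

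Correlations of same-numbered libraries ran from -0.33 to 0.56. Between SOD1G93A/Clec7a-KO and Clec7a-KO they were 0.47, 0.34, -0.23 and 0.56, in the order of the replicates. Libraries of different numbers were not correlated, so these values cannot decide whether replicate numbers pair the libraries. With a replicate block, 8655 genes were called in SOD1G93A/Clec7a-KO against Clec7a-KO, the same 6 of the 8 among them, 7 genes in SOD1G93A/Clec7a-KO against SOD1G93A, 4 and 5 members in astrocyte-like cells (3 and 4 without the block), 1 member in endothelial-like cells in each contrast and 1 in ependymal-like cells in SOD1G93A against nTg. The settings without 3 libraries, without TMM and without clusters 2, 4 and 10 were chosen after seeing the data. Gp9 and Csmd3 rest on the fewest UMIs, down to 157 and 267 in a library.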
